A study of Mus musculus with 34 samples.

Results

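Planar cell polarity aligns cells within the plane of a tissue. The 8 genes described here, Vangl1, Vangl2, Celsr1, Prickle1, Prickle2, Ror2, Ptk7 and Dact1, were taken by symbol as every row of each library's gene table that carried one of these names, out of 37145 genes in the tables from cell cultures and 46785 in those from embryo sections. All 8 were found in both kinds of table. RNA sequencing tables were at hand for 30 of the series' 34 samples, and the other 4, pieces of posterior embryo, were not analysed here. The cultures were mouse embryonic stem cells of the strain 129S1/SVImJ at 4 days after withdrawal of LIF, a cytokine that keeps such cells from differentiating. They comprised 3 libraries of the wild-type line CJ9 and 3 of a line labelled 4x polyA KI, here the knock-in. The labels give neither the insertion site nor whether the knock-in line is 1 clone.

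The embryo libraries came from C57/B6 mouse embryos of embryonic day 7 that were frozen, sectioned and dissected by laser, and the captured pieces were amplified by Geo-seq, which is made for small numbers of cells. The embryos were heterozygous (Evx1as+/-) or homozygous (Evx1as-/-) at the gene for the long non-coding RNA Evx1as, so the control embryos also carried 1 mutant allele, and there were no wild-type sections. The primitive streak gave 6 heterozygous sections (layers 1, 3, 5, 7, 9 and 11) and 5 homozygous ones (layers 1, 5, 7, 9 and 11). The mesoderm gave 3 heterozygous (layers 7, 9 and 11) and 5 homozygous ones (layers 3, 5, 7, 9 and 11), and the anterior epiblast of layers 4 to 6 gave 1 library per genotype. The labels do not say in which direction the layers are numbered. A further 3 sections, whose title and cell type disagree on the region, entered no comparison.

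In planar cell polarity, the transmembrane proteins of the Vangl, Celsr and Frizzled families and the cytoplasmic Prickle and Dishevelled proteins form complexes that sit on opposite sides of neighbouring cells. Non-canonical Wnt ligands such as Wnt5a act through receptors that include Ror2, and Ptk7 is a co-receptor without active kinase. In the gastrulating mouse embryo this pathway is known for its part in the narrowing and lengthening of the body axis as cells pass through the primitive streak and move away as mesoderm. Levels are in FPKM, which divides the fragments of a gene by its transcript length and by the mapped fragments of the library, so levels of different genes within a library can be set side by side. Cultures and sections were prepared by different protocols and their levels are not compared.

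The section tables place the members on mm10 as follows. Vangl1 (ENSMUSG00000027860.15) lies on chromosome 3 from 102153583 to 102204693 and Vangl2 (ENSMUSG00000026556.15) on chromosome 1 from 172000960 to 172028444. Celsr1 (ENSMUSG00000016028.9) lies on chromosome 15 from 85898758 to 86033777, and Prickle1 (ENSMUSG00000036158.12) on the same chromosome from 93499114 to 93595891. Prickle2 (ENSMUSG00000030020.13) lies on chromosome 6 from 92370908 to 92706155, Ror2 (ENSMUSG00000021464.14) on chromosome 13 from 53109312 to 53286124 and Ptk7 (ENSMUSG00000023972.9) on chromosome 17 from 46564451 to 46629504, all 7 on the minus strand. Dact1 (ENSMUSG00000044548.11) lies on the plus strand of chromosome 12 from 71309884 to 71320107. In GENCODE vM21 it shares 34.9% of its exon bases with 4930474H06Rik on the opposite strand, while the other members share at most 0.112% with any other gene.

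The promoters of Prickle1 and Ptk7 are shown because these 2 members passed the test both in the cultures and between regions of the embryo. Each sequence is the 250 bases before a transcription start listed by RefSeq (build GRCm38.p6), printed 5′ to 3′ on the strand of the gene, and capitals mark the GC box, GGGCGG or its reverse complement CCGCCC. The Prickle1 window lies at chr15:93595903-93596152 on the minus strand and the Ptk7 window at chr17:46629505-46629754 on the minus strand.
Prickle1: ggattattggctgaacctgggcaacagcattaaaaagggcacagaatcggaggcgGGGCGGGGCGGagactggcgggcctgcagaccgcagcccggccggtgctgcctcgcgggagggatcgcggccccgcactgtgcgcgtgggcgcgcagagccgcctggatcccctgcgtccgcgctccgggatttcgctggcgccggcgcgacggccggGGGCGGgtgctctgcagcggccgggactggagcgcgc
Ptk7: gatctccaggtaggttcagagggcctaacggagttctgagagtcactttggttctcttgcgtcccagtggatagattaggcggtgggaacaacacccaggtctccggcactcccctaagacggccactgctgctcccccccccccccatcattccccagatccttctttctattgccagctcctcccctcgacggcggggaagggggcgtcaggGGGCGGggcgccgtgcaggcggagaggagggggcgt
The Prickle1 window was 74.0% G or C and held 3 GC box matches, of which the first pair overlaps, and the Ptk7 window was 64.0% G or C and held 1. RefSeq windows were at hand for 6 of the 8 members (10 windows in all, 2 of them for Prickle1 and 4 for Prickle2). A GC box stood in 9 of these 10 windows and in 32.7% of all 32851 windows of the same length. The T-box motif GGTGTGA (reverse complement TCACACC), present in 3.33% of all windows, stood in none of the 10. The homeobox motif TAATTA, present in 4.84% of all windows, stood in none of the 10 either. The TCF/LEF motif CTTTGAT (reverse complement ATCAAAG), present in 3.21% of all windows, stood in 1, a window of Prickle2. A match is a run of letters only, and binding was not measured.

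Facts of the whole series bear on what follows. Evx1as (listed as 5730457N03Rik) measured 5.26 ± 1.14 FPKM (SD, n = 3) in wild-type and 0.0947 ± 0.037 (n = 3) in knock-in cultures, and it was listed at 0 in 3 of 5 homozygous streak and 5 of 5 homozygous mesoderm sections, but also in 1 of 6 heterozygous streak and 1 of 3 heterozygous mesoderm sections. The summed FPKM of 6 streak markers was 238 to 459 in the 11 streak sections and 12.8 to 86.5 in the 8 mesoderm sections. That of 8 mesoderm markers overlapped (16.7 to 94.6 in streak and 21.6 to 132 in mesoderm), so these markers set the streak label apart but not the mesoderm label. Summed markers of visceral endoderm, the layer that surrounds the epiblast, reached 601 in homozygous streak layer 11 and 387 in homozygous mesoderm layer 9 and at most 44.4 in the other 17 sections. A single non-coding RNA, Yam1, took between 1.07% and 33.1% of all FPKM in these 19 sections, and the sections held 6806 to 10959 genes at 1 FPKM or more against 12758 to 13073 in the cultures. Sequencing depth is unknown. No label says that libraries of a group came from separate cultures or names the embryo of a section. The p-values therefore measure the spread between these libraries, and those over sections are too small where an embryo gave several of them.

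The first comparison asks how the knock-in cultures differed from wild type. Prickle1 was 3.64-fold higher in the knock-in and Ptk7 2.11-fold lower. Celsr1 and Dact1 also rose and Ror2 fell. Vangl1, Vangl2 and Prickle2 did not pass the test. Of the 7 members averaging at least 1 FPKM, 3 were higher and 2 lower at a Benjamini-Hochberg adjusted p under 0.05 in a fit over all genes with limma. Among all 13133 genes tested, 32.4% were called (16.2% higher and 16.2% lower), so a call of either sign was common in this comparison. The median log2 change of the 7 members was -0.01 and that of all genes 0.02.

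Prickle1 encodes a cytoplasmic protein with LIM domains that binds Vangl. It measured 4.70, 5.84 and 5.21 FPKM in the wild-type cultures and 18.7, 20.5 and 18.1 FPKM in the knock-in cultures. The lowest knock-in library thus lay far above the highest wild-type library, and 24.4% of all genes had groups that did not overlap in this direction. The log2 change of FPKM + 1 was 1.69 (SE 0.14, 95% interval 1.37 to 2.01, adjusted p = 0.000302). Its paralogue Prickle2 was the lowest of the 8 members in each of the 6 cultures, at 0.391, 0.691 and 0.410 FPKM in wild type and 0.438, 0.487 and 0.481 in the knock-in. It missed the filter, its groups overlapped, and an exact two-sided permutation test gave p = 1.0, where the smallest p that 3 against 3 allows is 0.1. Prickle1 made up 89.4% to 92.7% of the sum of Prickle1 and Prickle2 FPKM in wild type and 97.4% to 97.7% in the knock-in.

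Celsr1 encodes a multi-pass protocadherin that bridges neighbouring cells. It measured 1.78, 1.61 and 1.62 FPKM in wild type and 4.74, 3.16 and 2.72 FPKM in the knock-in. The groups did not overlap, and knock-in replicate 1 stood above the other knock-in libraries. The log2 change was 0.74 (SE 0.21, adjusted p = 0.0287). The call was lost in 5 of the 6 fits that each left out 1 library (adjusted p from 0.0668 to 0.0809) and held without knock-in replicate 3.

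Vangl1 and Vangl2 encode the multi-pass membrane proteins that recruit Prickle. Vangl2 measured 21.7, 23.7 and 17.4 FPKM in wild type and 16.8, 15.6 and 15.9 in the knock-in. The groups did not overlap, which held for 24% of all genes tested in the direction of lower knock-in values, but the log2 change of -0.35 (SE 0.15, 95% interval -0.69 to -0.01) had an adjusted p of 0.103. Without wild-type replicate 3, the lowest of its group, the adjusted p was 0.0462. Vangl1 measured 12.9, 14.3 and 19.7 FPKM in wild type and 14.7, 16.4 and 15.1 in the knock-in, with overlapping groups. Its log2 change was -0.01 (95% interval -0.40 to 0.39, adjusted p = 0.986), an interval that leaves room for a modest change either way.

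Ptk7 was the highest of the 8 members in all 6 cultures. It measured 82.8, 90.6 and 80.1 FPKM in wild type and 42.3, 33.8 and 44.2 FPKM in the knock-in. All knock-in libraries lay well below all wild-type libraries. The log2 change was -1.06 (SE 0.14, 95% interval -1.38 to -0.75, adjusted p = 0.00133). Ror2, a receptor tyrosine kinase for Wnt5a, measured 16.4, 17.4 and 16.2 FPKM in wild type and 13.0, 10.5 and 12.8 in the knock-in. Its groups did not overlap either, with a log2 change of -0.43 (SE 0.14, adjusted p = 0.0426). This call was lost in 6 of 6 fits that left out a library (adjusted p from 0.0531 to 0.150).

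Dact1 encodes a scaffold that binds Dishevelled and Vangl proteins. It measured 1.18, 1.10 and 1.96 FPKM in wild type and 3.03, 2.61 and 4.25 FPKM in the knock-in. The groups did not overlap. The log2 change was 0.83 (SE 0.23, adjusted p = 0.0265), and the call was lost in 4 of 6 fits that left out a library (adjusted p from 0.0556 to 0.0840 there, and held without wild-type replicate 3 or knock-in replicate 2). Its antisense neighbour 4930474H06Rik read up to 2.20 FPKM (median 1.60) in wild type and up to 0.870 FPKM (median 0.000145) in the knock-in. Unless the counting used the strand, reads of this pair cannot be told apart in their shared exons, so the change of Dact1 in the cultures is uncertain. In the sections 4930474H06Rik read at most 8.23e-06 FPKM.

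**Figure D1:**
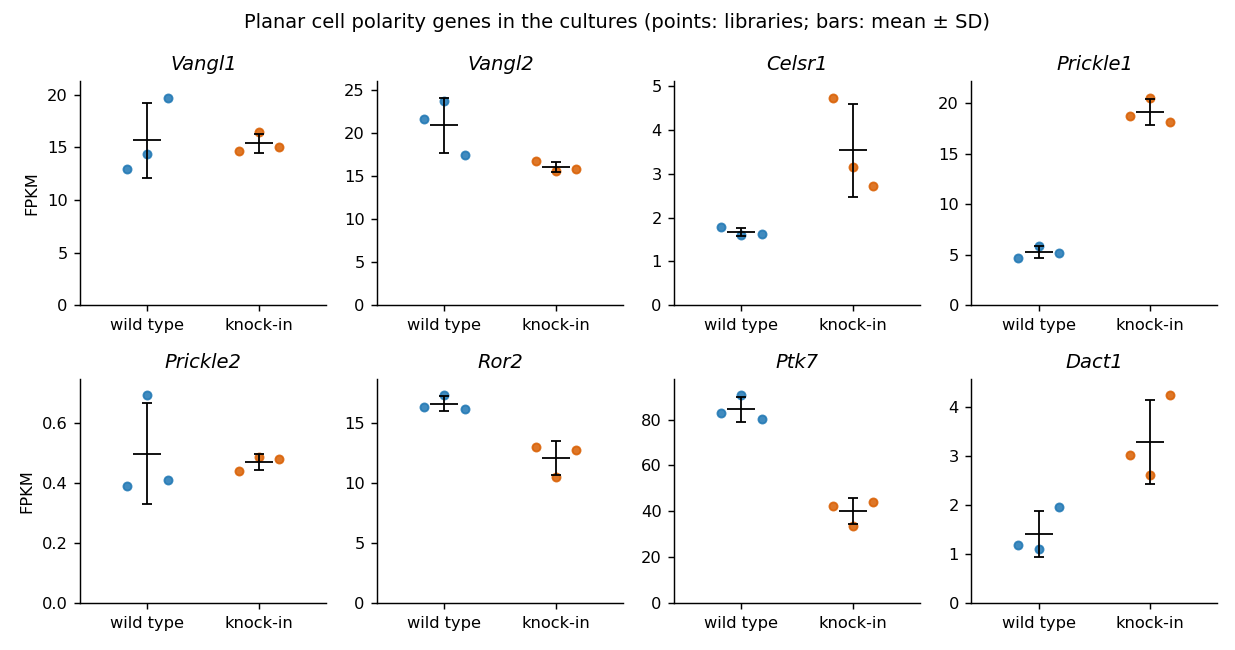
FPKM (vertical axis, from 0, a scale of its own in each panel) of the 8 members in the 3 wild-type and 3 knock-in cultures; each point is 1 library and the bars are the mean ± SD. Prickle1 went from 5.25 ± 0.574 to 19.1 ± 1.27 FPKM and Ptk7 from 84.5 ± 5.43 to 40.1 ± 5.56 FPKM, while the groups of Vangl1 and of Prickle2 overlapped.

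The calls of Prickle1 and Ptk7 held in all 6 fits that left out 1 library. Lane tokens in the table names differ between cultures, and only wild-type replicate 2 and knock-in replicates 2 and 3 share one (L3). Within these 3 libraries, where the lone wild-type library is assumed to vary like the knock-in ones, Prickle1 was still past the threshold (log2 change 1.57, adjusted p = 0.0367) and Ptk7 was not (-1.21, adjusted p = 0.0545). Marker lists moved with the genotype as well. The sum of 6 epiblast markers was 765 to 882 FPKM in wild type and 1490 to 1695 in the knock-in, with 5 of 6 higher in the knock-in. The sum of 6 streak markers was 293 to 432 against 89.2 to 109 (5 of 6 lower), and that of 8 mesoderm markers 47.3 to 85.6 against 13.1 to 17.0 (8 of 8 lower). The sum of 5 feeder fibroblast markers was 6.89 to 16.1 against 18.7 to 21.2 (1 of 5 higher, 4 lower) and that of 5 extraembryonic ectoderm markers 36.8 to 50.5 against 16.4 to 29.2. Visceral endoderm markers summed to at most 2.40 in every culture. The part of these differences in cell composition in the members' changes was not tested, and in bulk libraries fewer cells of a type and less RNA per cell cannot be told apart.

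A list of 44 other genes of the pathway gave 36 averaging at least 1 FPKM in the cultures. In the knock-in 5 of them rose and 10 fell, where 16.2% of all genes were called higher and 16.2% lower. The median log2 change of the 36 was -0.13, against 0.02 over all genes. Among the 3 ligands, 2 fell. Wnt5a, the main non-canonical ligand of the posterior embryo, went from 13.0 ± 4.17 FPKM (SD, n = 3, range 9.54 to 17.7) to 0.588 ± 0.667 (n = 3, range 0.107 to 1.35), a log2 change of FPKM + 1 of -3.18 (SE 0.33, adjusted p = 0.000625). Wnt5a averaged over 1 FPKM only through the wild-type cultures, so the filter favoured a fall and its call is a description. Wnt5b read 10.6 ± 0.486 FPKM in wild type and 3.11 ± 0.755 in the knock-in, with a log2 change of -1.51 (adjusted p = 0.000913). The third ligand, Wnt11, did not pass the test (log2 change 0.34, adjusted p = 0.346).

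The counts by role are small and stand beside 16.2% of all genes called higher and 16.2% lower. The receptors and co-receptors moved both ways, with 1 of 6 tested higher and 3 lower. Fzd7, a Frizzled receptor, went from 32.4 ± 5.01 to 56.9 ± 2.73 FPKM (adjusted p = 0.00449), and Gpc4, a glypican that binds Wnt ligands at the cell surface, from 40.8 ± 13.4 to 14.3 ± 3.18 FPKM (adjusted p = 0.00651). The Celsr paralogues on the list were higher in 2 of 2 cases. Celsr2 read 3.73 ± 0.588 FPKM in wild type and 12.4 ± 5.19 in the knock-in, a log2 change of 1.44 (adjusted p = 0.00712) with the same sign as that of Celsr1. Of the cytoplasmic core proteins 1 of 7 tested was lower and none higher, and of the inhibitors and scaffolds 1 of 6 was higher and 1 lower. Among the downstream effectors 3 of 10 tested were lower and none higher. They include Daam1, a formin that links Dishevelled to the actin cytoskeleton, which went from 8.81 ± 1.71 to 3.82 ± 0.462 FPKM (adjusted p = 0.00512). Of the Fat and Dachsous genes 1 of 2 tested was higher. Within the L3 libraries Wnt5a and Gpc4 were still past the threshold (adjusted p = 0.0478 and 0.0479), and Wnt5b, Fzd7, Daam1 and Celsr2 were not (0.0659 to 0.148).

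**Figure D2:**
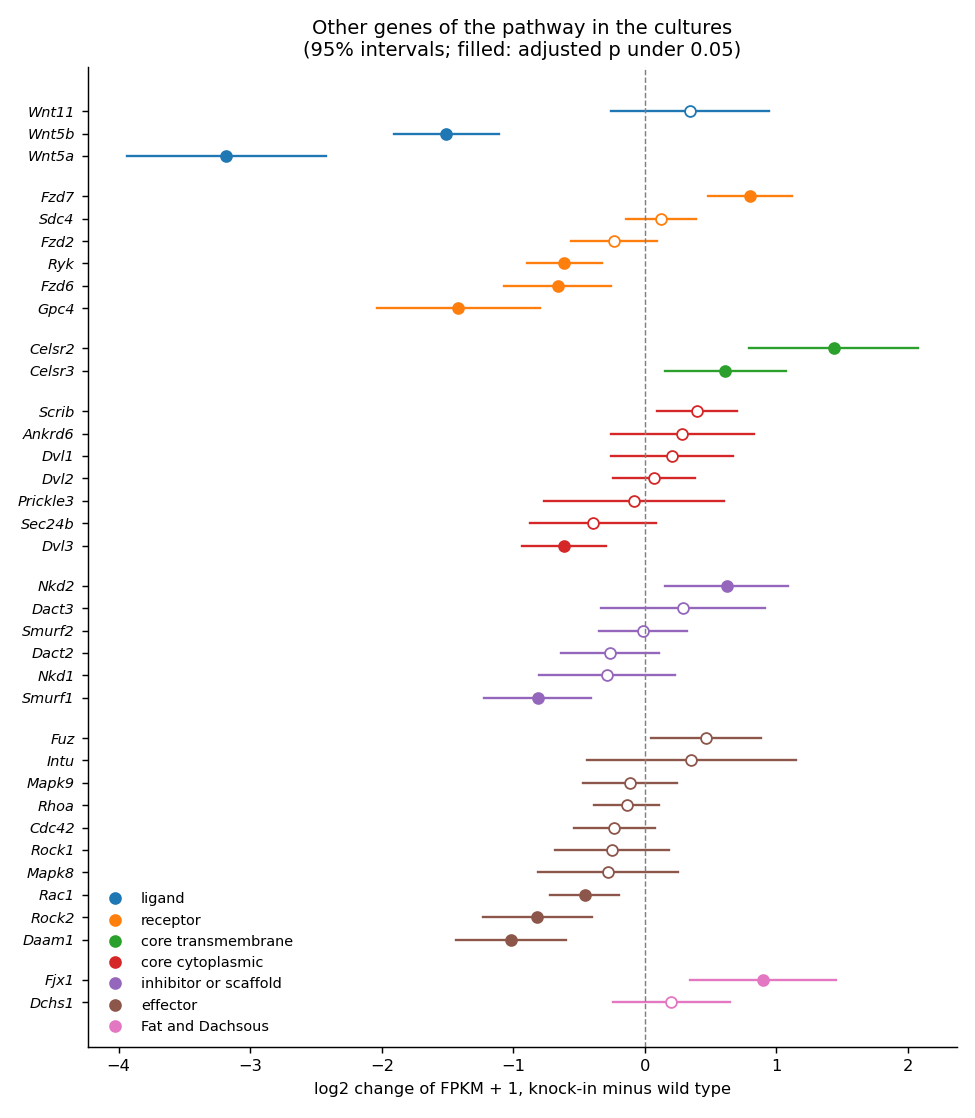
Fitted log2 change of FPKM + 1, knock-in minus wild type (horizontal axis), with 95% intervals for the 36 tested genes of the pathway list, coloured by role; filled points have an adjusted p under 0.05. Wnt5a, at -3.18, lies farthest from 0 and passed the filter only through the wild-type cultures. The filled points stand on both sides of 0 among the receptors.

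The second comparison asks which members differ between primitive streak and mesoderm, in 7 pairs of sections of the same genotype and layer (heterozygous layers 7, 9 and 11 and homozygous layers 5, 7, 9 and 11). Prickle1 was lower in the mesoderm in 7 of 7 pairs, and over all sections its mean was 6.70-fold higher in the streak. Ptk7 was also lower in 7 of 7 pairs. The share of all genes with such counts of pairs was not computed. Vangl1, Ror2 and Dact1 were each lower in 5 of 7 pairs and did not pass the test, and Vangl2 was lower in 4 of 7. Of the 6 members averaging at least 1 FPKM, 2 passed the threshold, both lower in the mesoderm, and 8.62% of all 9146 genes did (0.579% higher and 8.04% lower). Most genes read lower in the mesoderm sections: over all genes the median log2 change was -0.34, and over the 6 members -0.78. The calls split into 53 higher and 735 lower genes, and into 35 and 28 after every library was scaled by the median ratio of its genes.

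Prickle1 measured 5.62, 10.8, 15.8, 13.0, 9.57 and 9.08 FPKM in heterozygous streak layers 1, 3, 5, 7, 9 and 11, and 1.98, 11.4, 9.70, 11.6 and 5.10 FPKM in homozygous streak layers 1, 5, 7, 9 and 11. In heterozygous mesoderm layers 7, 9 and 11 it measured 2.92, 1.17 and 0.179 FPKM, and in homozygous mesoderm layers 3, 5, 7, 9 and 11 it measured 1.24, 2.23, 1.80, 0.648 and 1.06 FPKM. The 2 regions overlapped only through homozygous streak layer 1, which is not among the pairs and lay below the highest mesoderm section. Within pairs, the mesoderm level was between 0.020 and 0.224 of the streak level. The lowest ratio rests on heterozygous mesoderm layer 11 (0.179 FPKM, submitters' interval 0 to 0.435), and the next lowest was 0.056. The fitted log2 change was -2.23 (SE 0.25, 95% interval -2.77 to -1.68, adjusted p = 0.00105). The size of this change was -1.89 relative to the median of all genes, and the call held after scaling every library by its median ratio (-1.92, adjusted p = 0.0126) and in 14 of 14 fits without a section (which drops its pair). The anterior epiblast libraries read 1.17 FPKM (heterozygous) and 1.61 FPKM (homozygous), within the mesoderm range.

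Within each genotype the difference had the same sign. The log2 change of Prickle1 was -2.41 in the heterozygous pairs (SE 0.39, adjusted p = 0.0143, with 3.07% of all genes called in either direction, 20 higher and 261 lower, or 32 and 80 after scaling) and -2.09 in the homozygous pairs (SE 0.34, adjusted p = 0.0360, with 0.219% called). The call in the homozygous pairs was lost in each of the 8 fits without one of its own sections (adjusted p from 0.102 to 0.234) and after scaling (-1.68, adjusted p = 0.211). The difference between the genotypes' region changes was 0.31 for Prickle1 (95% interval -0.81 to 1.44, adjusted p = 0.972). None of the 6 members tested passed in that test of the difference (adjusted p at least 0.963), where 0.0109% of all genes did. At an unadjusted p under 0.05 there were 0 of 6 members with limma, against 6.14% of all genes.

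Ptk7 measured 7.93, 10.4, 17.3, 8.74, 14.8 and 6.49 FPKM in heterozygous streak layers 1 to 11 and 4.48, 8.00, 8.41, 14.6 and 11.0 in the homozygous streak. The mesoderm sections read 6.33, 7.64 and 1.66 FPKM (heterozygous layers 7, 9 and 11) and 3.52, 3.44, 4.83, 5.56 and 6.98 FPKM (homozygous layers 3 to 11). The ranges of the 2 regions overlapped, but every pair had the lower value in the mesoderm, between 0.255 and 0.725 of the streak level. The fitted log2 change was -0.90 (SE 0.22, 95% interval -1.37 to -0.43, adjusted p = 0.0290). The call was lost after median-ratio scaling (-0.52, adjusted p = 0.319) and in 8 of 14 fits without a section, those that dropped the homozygous pairs of layers 7, 9 or 11 or the heterozygous pair of layer 9 (adjusted p from 0.0521 to 0.0805). The anterior epiblast libraries read 3.80 and 2.48 FPKM (heterozygous and homozygous).

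Vangl1 measured 3.76, 5.61, 6.89, 4.64, 2.68 and 0.161 FPKM in the heterozygous streak (layers 1 to 11) and 3.38, 4.79, 5.98, 4.72 and 2.32 in the homozygous streak. In the mesoderm it read 0.417, 0.283 and 0.403 FPKM in heterozygous layers 7, 9 and 11 and 3.21, 1.51, 1.13, 1.07 and 2.62 FPKM in homozygous layers 3, 5, 7, 9 and 11. The 2 pairs of layer 11 had the higher value in the mesoderm and the other 5 pairs the lower one. The log2 change was -1.07 (SE 0.32, 95% interval -1.77 to -0.37) with an adjusted p of 0.0576. Without the heterozygous pair of layer 11 it was -1.29 with an adjusted p of 0.0320.

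Vangl2 showed no such difference in these sections. It measured 0.316 to 3.14 FPKM in the heterozygous streak (median of the 6 sections 2.62), and 2.15, 1.57, 2.57, 4.04 and 2.33 FPKM in the homozygous streak. The mesoderm read 1.44, 3.00 and 1.56 FPKM in heterozygous and 2.01, 2.50, 1.93, 1.51 and 1.67 FPKM in homozygous sections. The log2 change was -0.10 (95% interval -0.70 to 0.50, adjusted p = 0.840), and 0.24 after scaling. Vangl1 therefore made up a median of 61.5% of the sum of Vangl1 and Vangl2 FPKM in the heterozygous streak and 61.1% in the homozygous streak, against 20.5% in heterozygous and 41.4% in homozygous mesoderm. This share was not tested.

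Ror2 measured 2.93, 5.38, 1.80, 4.71, 4.74 and 0.633 FPKM in the heterozygous and 3.40, 2.16, 3.01, 2.38 and 3.01 FPKM in the homozygous streak. In the mesoderm it read 1.28, 3.22 and 1.05 FPKM in heterozygous and 1.16, 3.00, 1.25, 1.36 and 1.36 FPKM in homozygous sections. The regions overlapped, with a log2 change of -0.46 (95% interval -1.04 to 0.12, adjusted p = 0.283). Dact1 had the widest spread within the streak, at 12.7, 2.45, 8.88, 6.66, 4.29 and 1.15 FPKM in heterozygous and 19.9, 1.83, 6.75, 7.01 and 4.14 FPKM in homozygous sections. Its mesoderm values were 1.31, 0.659 and 4.23 FPKM and 2.22, 1.97, 2.02, 3.42 and 2.93 FPKM, with a log2 change of -0.66 (95% interval -1.43 to 0.10, adjusted p = 0.239). In the anterior epiblast Dact1 read 0.088 (heterozygous) and 0.034 FPKM (homozygous), below every streak and mesoderm section.

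Celsr1 and Prickle2 were near the lower end of measurement in the sections and missed the filter. Celsr1 read between 0 and 0.688 FPKM in the heterozygous streak, 0 and 0.176 in the homozygous streak, 0 and 0.104 in the heterozygous mesoderm, and 0.025 and 0.803 in the homozygous mesoderm. Prickle2 read at most 1.23 FPKM in any of these sections and was listed at 0 in 4 of the 19 streak and mesoderm sections. Prickle1 exceeded Prickle2 in the 11 streak sections and in the mesoderm sections other than heterozygous layer 11, where Prickle1 read 0.179 and Prickle2 0.310 FPKM. Within the 21 sections with a group, Ptk7 was the highest of the 8 members in 12, Prickle1 in 5, Dact1 in 3 and Vangl2 in 1. The lowest was Celsr1 in 13, Prickle2 in 6 and Dact1 in 2. The 13 include homozygous streak layer 9, where Celsr1 and Prickle2 were both listed at 0.

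**Figure D3:**
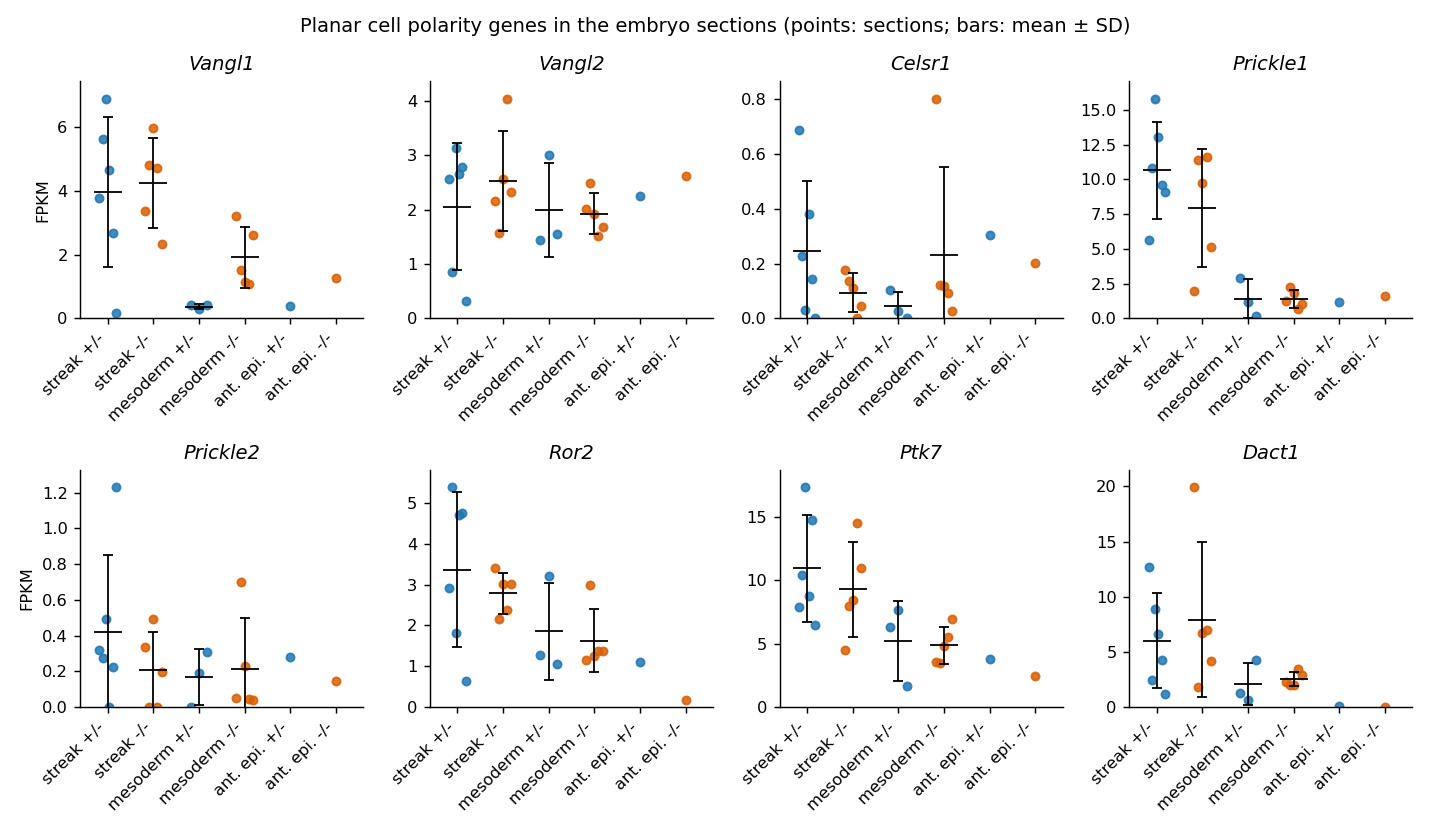
FPKM (vertical axis, from 0, a scale of its own in each panel) of the 8 members in the sections by region and genotype; each point is 1 section, bars are the mean ± SD where a group has over 1 section, and bars that would run below 0 are cut there. Prickle1 lies at 1.98 to 15.8 FPKM in the streak and at 0.179 to 2.92 in the mesoderm, while the regions overlap widely for Vangl2.

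Among the other pathway genes, 19 of 44 passed the filter in the comparison of regions. Of these, 3 were lower in the mesoderm and none higher, against 8.04% and 0.579% of all genes. The median log2 change of the 19 was -0.31, against -0.34 over all genes. Wnt5b read 6.24 ± 3.00 FPKM (SD, n = 6) in the heterozygous and 4.90 ± 1.35 (n = 5) in the homozygous streak, and 0.298 ± 0.515 (n = 3) and 1.51 ± 1.71 (n = 5) in the mesoderm. It was lower in the mesoderm in 7 of 7 pairs (log2 change -1.84, adjusted p = 0.0175) and listed at 0 in both anterior epiblast libraries. Wnt5a ran the other way in 6 of 7 pairs without passing the test (log2 change 0.36, adjusted p = 0.355). The other called genes were Rock1, a kinase that acts on the actin cytoskeleton (-0.95, adjusted p = 0.0248), and the small GTPase Cdc42 (-0.65, adjusted p = 0.0477). After scaling, Wnt5b, Rock1 and Cdc42 were no longer past the threshold (adjusted p = 0.129, 0.216 and 0.588). Leaving out 1 pair lost the call of Rock1 in 4 of 7 cases (adjusted p from 0.0510 to 0.0904) and that of Cdc42 in 6 of 7 (0.0724 to 0.128).

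Other lists and measures moved with the region. All 6 streak markers and 5 of 6 epiblast markers had lower means in the mesoderm, epiblast markers summing to 52.0 to 263 FPKM in streak and 13.5 to 94.4 in mesoderm. Visceral endoderm markers were lower in the mesoderm in 7 of 8 cases, extraembryonic ectoderm markers summed to at most 2.97 FPKM in the streak and 6.05 in the mesoderm, and feeder fibroblast markers to at most 1.67 FPKM in both. The part of these differences in the members' changes was not tested. Without the homozygous pair of layer 9, whose mesoderm section held the high visceral endoderm markers, the log2 change of Prickle1 was -2.11 (adjusted p = 0.00586), and without the homozygous pair of layer 11, whose streak section held them, it was -2.34 (adjusted p = 0.00237).

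**Figure D4:**
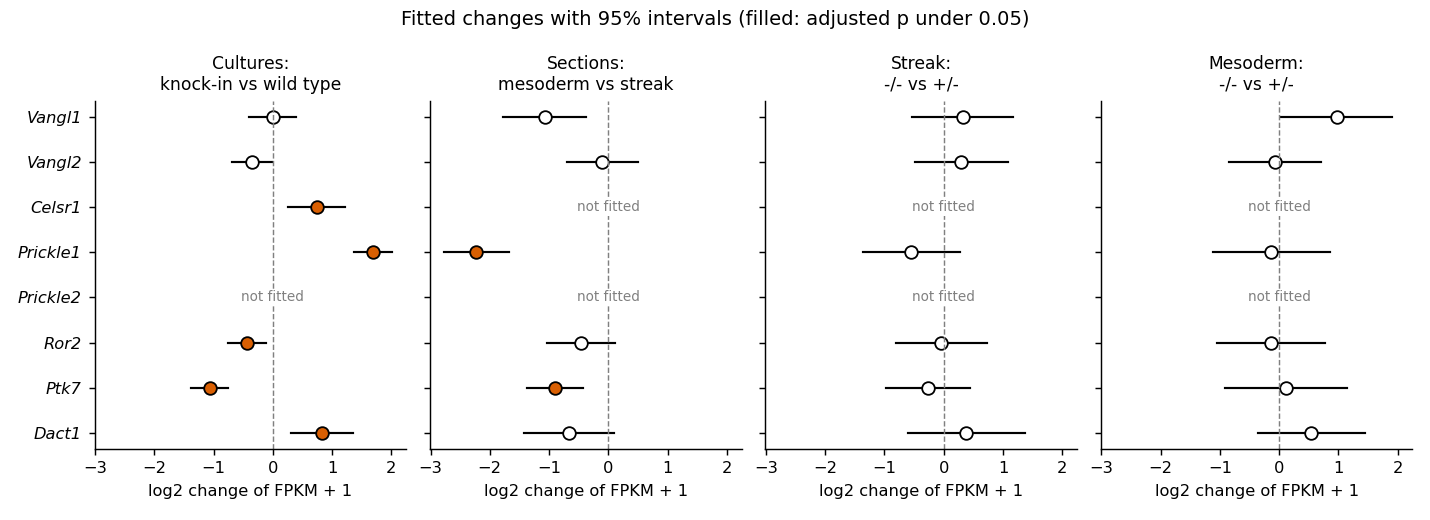
Fitted log2 change of FPKM + 1 (horizontal axis) with its 95% interval for each member in 4 comparisons; filled points have an adjusted p under 0.05, and members under the filter are written as not fitted. Prickle1 is filled on the right in the cultures (1.69) and on the left for mesoderm against streak (-2.23), and no member is filled in the comparisons of genotypes in the sections.

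The third comparison asks whether the members differ between homozygous and heterozygous sections. No member passed the threshold in streak, in mesoderm or over both regions, where 0.0201%, 0.196% and 1.25% of all genes did. The calls over all genes were 17 higher and 0 lower in mesoderm (16 and 3 after scaling) and 108 higher and 11 lower over both regions (94 and 68 after scaling). At an unadjusted p under 0.05, limma gave 0 of 6 members in streak, 1 of 6 in mesoderm and 0 of 6 over both regions, against 10.2%, 15.5% and 20.2% of all genes. Over all genes, the median log2 change was 0.25, 0.31 and 0.24 in these fits, and that of the 6 members 0.13, 0.02 and 0.03.

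In the streak, the changes ran from -0.55 for Prickle1 (95% interval -1.37 to 0.27, adjusted p = 0.612) to 0.38 for Dact1 (adjusted p = 0.769). Prickle1 read lower in the homozygous section in 4 of 5 layers shared by the genotypes, with 10.6 ± 3.50 FPKM (SD, n = 6) in heterozygous and 7.95 ± 4.24 (n = 5) in homozygous sections, a difference smaller than the spread within either group. Ptk7, at 10.9 ± 4.23 and 9.28 ± 3.74 FPKM, was also lower in 4 of 5 shared layers (log2 change -0.26, adjusted p = 0.780). Without homozygous layer 1 the log2 change was -0.14 for Prickle1, -0.047 for Ptk7 and 0.11 for Dact1. In the mesoderm, Vangl1 was the member at an unadjusted p under 0.05. It averaged over 1 FPKM only through the homozygous sections, so the filter favoured a difference in this direction and the result is a description. All 5 homozygous sections lay above all 3 heterozygous ones, 1.91 ± 0.957 FPKM (SD, n = 5) against 0.367 ± 0.074 (n = 3). The submitters' intervals of the heterozygous values began at 0, 0 and 0.00731 FPKM. The log2 change was 0.97 (95% interval 0.04 to 1.90) with an adjusted p of 0.305, and 8.6% of all genes had the same separation in the direction of higher homozygous values. Without homozygous layer 11 the log2 change was 0.58. Summed markers also differed between the genotypes in the mesoderm. Streak markers summed to 12.8 to 40.9 FPKM in the heterozygous and 65.7 to 86.5 in the homozygous mesoderm, and epiblast markers to 13.5 to 34.1 and 44.3 to 94.4. Within these lists T (12.1 FPKM heterozygous, 7.82 homozygous), Nkx1-2 (0.174, 0.0542) and Sox2 (1.27, 0.701) had lower means in the homozygous mesoderm. Over streak and mesoderm together 4 of 6 markers of either list had the higher mean in homozygous sections. Visceral endoderm markers summed to 1.63 to 8.59 FPKM and 7.08 to 387, and over streak and mesoderm together 8 of 8 had the higher mean in homozygous sections. Genes at 1 FPKM or more numbered 7025 to 8057 in the heterozygous and 8420 to 9403 in the homozygous mesoderm sections. The part of the markers and of these gene counts in the Vangl1 values was not tested. The log2 changes of the other 5 members lay between -0.14 (Ror2) and 0.55 (Dact1).

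Over both regions Vangl1 had a log2 change of 0.52 (95% interval -0.05 to 1.10, adjusted p = 0.295) and Prickle1 of -0.25 (95% interval -0.87 to 0.37, adjusted p = 0.668), or -0.025 without homozygous streak layer 1. Celsr1 and Prickle2, below the filter, were compared by exact two-sided permutation tests. For Celsr1 the exact p was 0.260 in streak (6 against 5 sections) and 0.411 in mesoderm (3 against 5), and for Prickle2 it was 0.361 and 0.875. The smallest p that these designs allow is 0.00216 and 0.0179. Of the other pathway genes 24, 16 and 21 were tested in streak, mesoderm and both regions, and none passed with limma. An unadjusted p under 0.05 was found for 0, 3 and 2 of them, against 10.2%, 15.5% and 20.2% of all genes. In mesoderm Wnt5b had a log2 change of 1.23 (adjusted p = 0.286), and it averaged over 1 FPKM only through the homozygous sections. Wnt5a had a log2 change of 0.06 there (adjusted p = 0.960).

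The last comparison follows the members over the layers. From layer 3 to layer 11 of the streak, the slopes of all 6 fitted members were below 0, and none passed the threshold (1 of 6 at an unadjusted p under 0.05 against 6.61% of all genes, and 0.0105% of all genes at an adjusted p under 0.05). Without heterozygous layer 11 the slopes of Vangl2, Ror2, Ptk7 and Dact1 were above 0, at 0.11, 0.034, 0.061 and 0.10. Vangl1 had the steepest of them. Heterozygous sections went from 6.89 FPKM at layer 5 to 0.161 at layer 11 and homozygous ones from 5.98 at layer 7 to 2.32 at layer 11, a log2 slope of -0.25 per layer number (95% interval -0.41 to -0.09, unadjusted p = 0.00558, adjusted p = 0.633). Without heterozygous layer 11 its slope was -0.14. That section held 6806 genes at 1 FPKM or more, the fewest of all sections. The submitters' interval of its Vangl1 value was 0 to 0.661 FPKM. In the mesoderm no slope passed (0 of 6 members at an unadjusted p under 0.05 with limma against 4.86% of all genes, and 0.0115% of all genes at an adjusted p under 0.05), with slopes between -0.12 for Prickle1 and 0.10 for Dact1.

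Layer 1 was held against layers 3 to 11 with 1 section per genotype. Dact1 was highest there in each genotype, at 12.7 and 19.9 FPKM, against at most 8.88 FPKM in any other streak section (log2 change 1.70, 95% interval 0.54 to 2.86, unadjusted p = 0.00712, adjusted p = 0.150). Prickle1 was lowest there in each genotype, at 5.62 and 1.98 FPKM, with homozygous layer 11 (5.10 FPKM) below heterozygous layer 1 (log2 change -1.32, 95% interval -2.16 to -0.48, adjusted p = 0.117). Neither passed the threshold, and 2.34% of all genes did (218 higher and 14 lower, or 160 and 45 after scaling). The share of all genes that were highest or lowest at layer 1 in each genotype was not computed. Over all genes the median log2 change was 0.30, and relative to it Dact1 was at 1.39 and Prickle1 at -1.63. The layer 1 sections also held more genes at 1 FPKM or more (10959 and 10559) than any other streak section (at most 9911). After median-ratio scaling the adjusted p of Prickle1 was 0.0389 (log2 change -1.54). Of the other pathway genes 1 of 24 passed, Fzd6, a Frizzled receptor known from planar polarity of the skin and neural tube. It read 4.03 FPKM in heterozygous and 6.60 FPKM in homozygous layer 1, with medians of 0.040 FPKM over the 6 heterozygous and 0.293 over the 5 homozygous streak sections. Fzd6 averaged over 1 FPKM only through the layer 1 sections, so it had to differ there and its call is a description. Wnt5a had a log2 change of -1.91 (adjusted p = 0.116). The mesoderm markers summed to 28.6 and 19.2 FPKM in the layer 1 sections and visceral endoderm markers to 25.8 and 37.8 FPKM, and their part in these values was not tested.

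**Figure D5:**
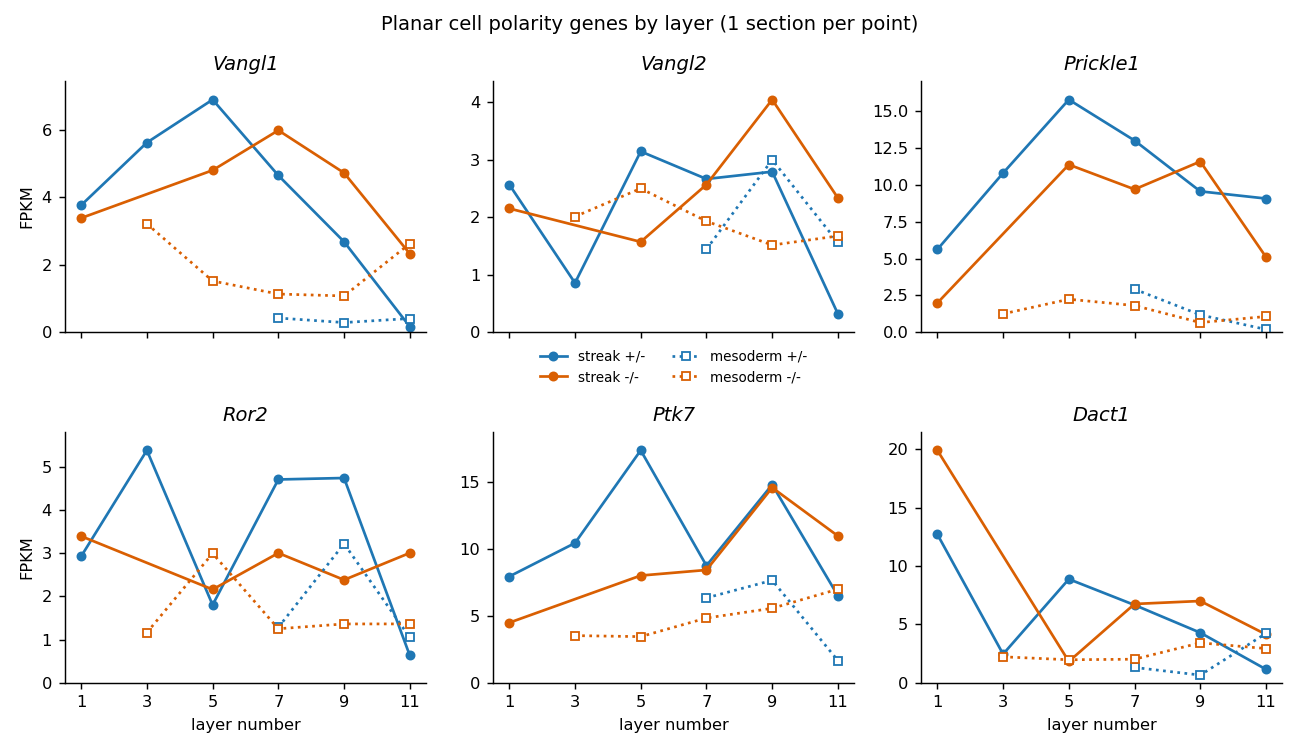
FPKM (vertical axis, from 0) of the 6 members averaging at least 1 FPKM, by layer number (horizontal axis), with filled circles and solid lines for streak and open squares and dotted lines for mesoderm; each point is 1 section, and lines join neighbouring sections at hand. Dact1 is highest at layer 1 (12.7 and 19.9 FPKM), Prickle1 is lowest there in the streak (5.62 and 1.98 FPKM), and Vangl1 in the heterozygous streak goes from 6.89 FPKM at layer 5 to 0.161 at layer 11. Heterozygous streak layer 11 held the fewest genes at 1 FPKM or more of all sections.

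Members and other genes were also set beside each other over the 21 sections, as a description. These sections differ in region and Yam1 content, and their depth is unknown. The members most alike were Prickle1 and Ptk7 (Pearson r of log2(FPKM + 1) = 0.80), followed by Vangl1 and Prickle1 (0.66), and Vangl2 and Prickle1 were least alike (0.08). Among 2746 named genes that averaged 5 FPKM or more, the genes most like Prickle1 were Apln (0.89), which encodes the ligand of the apelin receptor, Fst (0.89), which encodes the activin inhibitor follistatin, and Cdkn1a (0.88), which encodes a cyclin-dependent kinase inhibitor. Those most like Vangl1 were Cdc42se1 (0.88), Tes (0.86) and Mki67 (0.84), and those most like Vangl2 were Rpn1 (0.83), Tsg101 (0.81) and Tor1a (0.80). Those most like Ptk7 were Cxx1b (0.86), Psmc1 (0.84) and Odc1 (0.83), those most like Ror2 were Pdia6 (0.82), Rrbp1 (0.78) and Cited2 (0.78), and those most like Dact1 were Gpx8 (0.84), Rfk (0.80) and Cstb (0.80).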

How the data were processed

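RNA was sequenced from 6 cultures and 24 embryo sections, and each library has 1 deposited table of FPKM values per gene, in Cufflinks' column format, with an interval of unstated level. Per the submitters' processing notes, CASAVA and TopHat2 2.0.11 were used with the genome mm10. Section positions of the members match mm10 as annotated in GENCODE vM21, except the lower ends of Celsr1 (85898929 there) and Ptk7 (46564471 there). Culture positions do not match. The tables hold no counts, so depth is unknown and no counting error is given. Whether counting used the strand is not given in the sources used here.

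Groups come from the labels. Values below 1e-06 FPKM were set to 0. Genes averaging at least 1 FPKM in the libraries of a comparison were fitted as log2(FPKM + 1) with limma 3.58.1 (R 4.3.3, mean-dependent prior, two-sided), with Benjamini-Hochberg adjustment over all fitted genes and a threshold of 0.05. This scale understates changes of low genes. Genotypes were compared with the layer number as a linear term, and the pair of one genotype and layer was a block when regions were compared. Members below the filter were compared by exact permutation tests. The fits were checked on simulated data. Alternatives were a pseudocount of 0.1, no filter, median-ratio scaling (size factors from the gene-wise ratios to the geometric mean), the replicate number as a block or no block, cultures of 1 lane token, layer 1 included in the slope, and leaving out each library.

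The members, the pathway and marker lists and the tests were chosen with earlier results of these data known. Named genes are the 8 members in every comparison, of the other pathway genes up to 6 past the threshold by smallest p, the ligands Wnt5a, Wnt5b and Wnt11, label checks, and for each member averaging at least 1 FPKM the 3 genes most correlated with it over the sections, with unnamed and predicted genes left out.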

Additional observations from a re-analysis of the deposited data

Results flagged for a closer look

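In 4 of 24 groups of member values, 1 section stood apart from the others of its group by Dixon's test at the 95% level, where chance gives about 1 in 20. Celsr1 in homozygous mesoderm layer 3 read 0.803 FPKM against 0.121 in the next section. Prickle2 in homozygous mesoderm layer 5 read 0.700 FPKM against 0.229 in the next. Ror2 in homozygous mesoderm layer 5 read 3.00 FPKM against 1.36 in the next. Dact1 in homozygous streak layer 1 read 19.9 FPKM against 7.01 in the next, and the heterozygous section of layer 1 was also the highest of its group, at 12.7 FPKM.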

How the results depend on the processing

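Of 256 member values under settings other than leaving out a library, 224 kept their direction and side of the threshold, 15 lost and 3 gained a call, and 14 changed sign. Of 774 with 1 library left out, 673 kept both, 31 lost and 3 gained a call, and 67 changed sign. For the named pathway genes 99 of 117 and 285 of 319 kept both. All member values that changed sign had not passed the threshold, and no cause was tested. Unknown depth and values near 0 limit Celsr1 and Prickle2 most.

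Counts of genes past the threshold moved as follows. In the cultures the count was 4256, and 908 within the L3 libraries. Between genotypes in streak it was 2, and 1 with a pseudocount of 0.1, 0 with no filter and 8 after scaling. In mesoderm it was 17, and 0 with no filter. Over both regions it was 119, and 19 with no filter. Between regions it was 788, and 37 with no filter and 63 after scaling. In heterozygous pairs it was 281, and 8 with no filter and 112 after scaling. In homozygous pairs it was 20, and 11 with a pseudocount of 0.1, 3 with no filter and 11 after scaling. For the difference between the genotypes' region changes it was 1, and 0 with no filter and 2 after scaling. For the streak slope it was 1, and 0 with no filter and 8 with layer 1 included. For layer 1 it was 232, and 39 with a pseudocount of 0.1 and 590 with no filter. For the mesoderm slope it was 1, and 0 with no filter. With no filter the adjusted p of Ptk7 between regions was 0.0889, of Prickle1 in heterozygous pairs 0.0916, and in cultures of Celsr1 0.0721 and of Dact1 0.0724.

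Same-numbered libraries had deviations that correlated between -0.12 and -0.05 in the cultures, 0.02 and 0.48 in streak and 0.01 and 0.04 in mesoderm. Of the libraries with a same-numbered one, 0 of 6, 3 of 10 and 4 of 6 correlated best with it. For sections this number is the layer. The shared numbers were not taken as pairs between genotypes, although in mesoderm most libraries correlated best with the same-numbered one. With the replicate number as a block the counts were 3166 in the cultures, 0 in streak, 40 in mesoderm and 30 over both regions, Ror2 between genotypes in streak changed sign (0.071), and in the cultures Celsr1 (adjusted p = 0.0512) and Ror2 (0.103) were not past the threshold. The fits between regions with no replicate block took all 19 streak and mesoderm sections, also those without a pair, with the layer number as a linear term. The counts were 1723 over both genotypes, 30 in heterozygous and 1168 in homozygous sections. Prickle1 in heterozygous sections then lost its call (adjusted p = 0.106), and Vangl1 over both genotypes (0.0177) and Ptk7 in homozygous sections (0.0339) gained one.

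The log2 values that changed sign were, after scaling, Vangl2 between regions (0.24) and in homozygous pairs (0.028), between genotypes over both regions (-0.017) and at layer 1 (-0.032), Ptk7 between genotypes in mesoderm (-0.17) and in the streak slope (0.018), Ror2 at layer 1 (-0.078) and Wnt5a between genotypes in mesoderm (-0.21). With a pseudocount of 0.1 they were Ror2 between genotypes in streak (0.049) and in the difference of region changes (-0.085) and Vangl1 at layer 1 (0.12). With layer 1 included the streak slopes were 0.072 for Prickle1, 0.054 for Ptk7 and 0.0085 for Wnt5b. Within the L3 libraries Vangl1 was at 0.12.

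With 1 library left out, gene counts ran from 2693 to 3976 in the cultures, 0 to 9 between genotypes in streak, 0 to 139 in mesoderm and 43 to 577 over both regions. They ran from 158 to 743 between regions, 97 to 271 in heterozygous and 7 to 31 in homozygous pairs, 1 to 2 for the difference, 0 to 1 for the streak slope, 26 to 328 for layer 1 and 0 to 1 for the mesoderm slope. The values that changed sign ranged as follows. In the cultures Vangl1 ran from -0.12 to 0.16. Between genotypes in streak Vangl1 ran from -0.072 to 0.66, Vangl2 from -0.0080 to 0.42, Ror2 from -0.34 to 0.13 and Wnt5a from -0.55 to 0.15. In mesoderm Vangl2 ran from -0.30 to 0.15, Prickle1 from -0.40 to 0.31, Ror2 from -0.35 to 0.18, Ptk7 from -0.37 to 0.45 and Wnt5a from -0.19 to 0.47. Over both regions Ror2 ran from -0.22 to 0.024, Ptk7 from -0.32 to 0.0071 and Wnt5a from -0.27 to 0.10. Between regions Vangl2 ran from -0.28 to 0.049, in heterozygous pairs from -0.25 to 0.52, and Wnt5a in homozygous pairs from -0.031 to 0.37. For the difference of region changes Vangl1 ran from -0.44 to 0.69, Prickle1 from -0.030 to 0.60, Ror2 from -0.39 to 0.44, Ptk7 from -0.25 to 0.30 and Dact1 from -0.44 to 1.07. Streak slopes ran from -0.082 to 0.11 for Vangl2, -0.12 to 0.034 for Ror2, -0.045 to 0.061 for Ptk7 and -0.12 to 0.10 for Dact1. At layer 1 Vangl1 ran from -0.27 to 0.19, Vangl2 from -0.16 to 0.41 and Ror2 from -0.023 to 0.28. Mesoderm slopes ran from -0.12 to 0.054 for Vangl1, -0.090 to 0.0070 for Ror2 and -0.033 to 0.11 for Ptk7.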

Other observations

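The 3 sections whose title and cell type labels name different regions carry a different name stem and lane tokens from the other 21 in their table names, and their values are given alone. Prickle1 read 6.20, 2.82 and 1.51 FPKM in them, Ptk7 4.06, 5.48 and 2.89, Vangl1 4.00, 1.07 and 0.066, Vangl2 3.23, 1.25 and 2.51, Ror2 3.95, 1.28 and 1.07, and Dact1 7.71, 4.29 and 1.45. Celsr1 read 0.175, 0 and 0.039 FPKM. Prickle2 was listed at 0 in the first 2 and at 1.23 FPKM in the third. The first of these sections had 369 FPKM of summed streak markers and the others 27.8 and 16.3.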
